A study of Mus musculus with 12 samples.

Results

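The genes described here are 10 components of the circadian clock, read in mouse liver: Arntl (also called Bmal1), Clock, Npas2, Per1, Per2, Per3, Cry1, Cry2, Nr1d1 and Dbp. They were chosen by name, not by a rule on their values, among the 18193 genes that the array's probe sets name. Earlier results of these data were known when the choice was made. A probe set is a group of short probes on the array with 1 summary signal, and each gene was read by the probe set with the brightest average over the 12 arrays. The 10 genes had 23 probe sets in all, and 6 genes had more than 1.

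The livers came from C57BL/6 mice that entered the study at 8 weeks of age and were fed for 8 weeks, with 4 mice in each of 3 groups and 1 array per mouse. One group ate normal chow (NC). A second ate a high-fat diet free of methionine and choline (MCD+HF), a model of steatohepatitis. The third ate that diet with metformin, a glucose-lowering drug, at 0.1% of the food (MCD+HF+Met). The labels give no genetic change and no other agent in any of the 3 groups. The NC group differed from the other groups in methionine, choline and fat together, so the data compare whole diets. The labels describe every liver as taken in the fasting state, while the hour at which each mouse was killed was not given in the sources used here. Differences between groups in these genes therefore cannot be told apart from differences in the time of day of sampling or in the time since the last meal.

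The clock is a feedback loop of transcription factors that runs in most cells. ARNTL pairs with CLOCK or NPAS2, binds E-box elements and switches on the Per, Cry, Nr1d1 and Dbp genes. The PER and CRY proteins then block that pair, NR1D1 (REV-ERBα) represses Arntl through ROR elements, and DBP activates genes that carry D-boxes. In liver most of these transcripts rise and fall each day, those of Arntl, Clock and Npas2 roughly opposite to those of Dbp, Nr1d1 and Per3, and feeding time is known to shift them.

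The elements named above can be seen in the promoters of several of these genes. RefSeq promoter windows on build GRCm38.p6, which run from 250 bases before a transcription start to 50 after it, were listed for 9 of the 10 genes and searched on both strands for CACGTG (E-box), CACGTT (E′-box), TTANGTAA (D-box) and TNGGTCA (ROR element). Of the 32851 windows for all genes, 7.15% held the E-box, 4.68% the E′-box, 2.32% the D-box and 10.96% the ROR element. The stretches below are shown because these letters are what the loop is built on, and the capitals mark them, read 5′ to 3′ on each gene's strand. All lie upstream of a transcription start. An E′-box on the other strand reads AACGTG.
Nr1d1, E′-box, chr11:98775392-98775413, minus strand: cagatctcAACGTGccggctgc
Cry1, E′-box and E-box, chr10:85185101-85185141, minus strand: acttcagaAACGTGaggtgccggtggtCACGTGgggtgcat
Per1, E-box, chr11:69098775-69098796, plus strand: cccaagtcCACGTGcagggatg
Per3, 2 D-boxes, chr4:151044808-151044878, minus strand: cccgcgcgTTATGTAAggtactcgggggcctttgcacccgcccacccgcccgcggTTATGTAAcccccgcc
Arntl, 2 ROR elements, chr7:113207257-113207298, plus strand: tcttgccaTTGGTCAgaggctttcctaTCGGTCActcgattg
The Nr1d1 element began 28 bases before the start, and those of Cry1 began 79 and 60 bases before it. Cry2 held 1 E′-box and 1 ROR element, Per3 also held 1 ROR element, and the windows of Dbp, Clock and Npas2 held none of these letters. A match describes the sequence only and does not show that a protein was bound.

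On the MCD+HF diet, the output factor Dbp and the repressor Nr1d1 were lower than on normal chow, and the repressors Cry1 and Per2 were higher. Per1, Per3, Cry2 and the activators Arntl and Clock did not pass the test. Of the 10 genes, 9 had a mean signal of at least 20 and were tested, and 4 of the 9 were called, 2 higher and 2 lower, at an adjusted p under 0.05 in limma. Over all 22832 probe sets tested, 43.8% were called in this comparison, 25.4% higher and 18.4% lower, so the share of clock genes called was close to that background. The same 4 genes had no overlap between the 4 NC and the 4 MCD+HF mice, against 40.6% of all probe sets. The median change of the 9 genes was 0.35 in log2(signal + 10), beside 0.06 over all probe sets tested. Changes below are differences in log2(signal + 10), which understate the change of dim genes, and the fold is taken on the same scale.

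**Figure D1:**
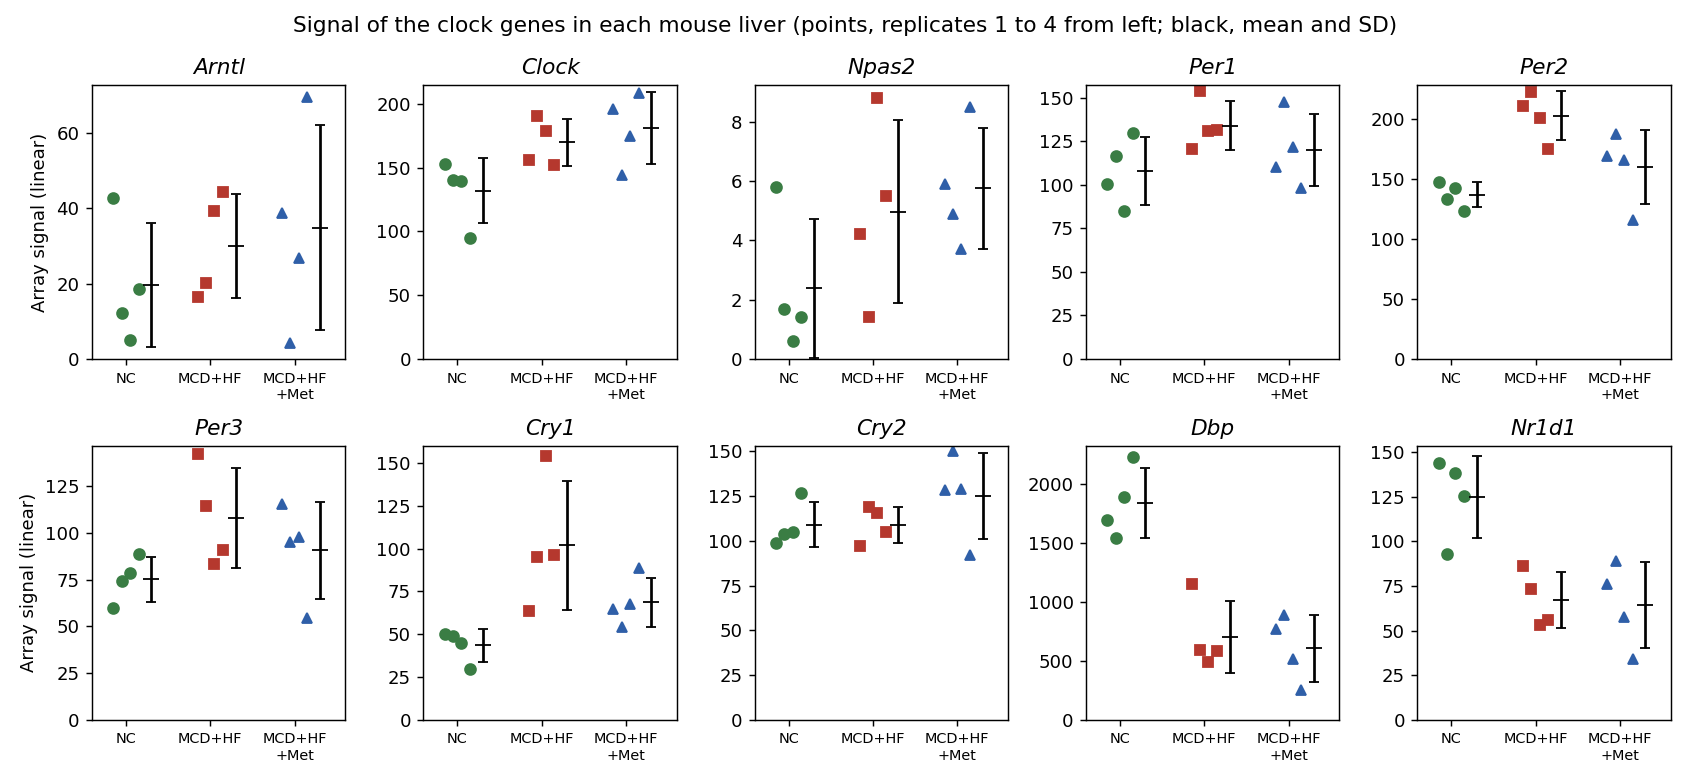
Array signal (linear scale, from 0) of the 10 clock genes in each of the 12 livers, with replicates 1 to 4 of each group from left to right and the mean and SD in black (n = 4). Dbp and Nr1d1 sit lower in all MCD+HF and MCD+HF+Met mice than in any NC mouse, and Cry1 sits higher.

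Dbp, a PAR bZIP factor that carries clock time to liver metabolic genes, had the largest change of the 9 genes tested. The 4 NC mice had signals of 1693.7, 1547.1, 1895.8 and 2230.2 (mean 1842 ± 296, SD, n = 4). The MCD+HF mice had 1157.6, 595.7, 488.3 and 583.5 (706 ± 305), and the MCD+HF+Met mice 767.3, 890.2, 518.8 and 253.1 (607 ± 282). Every mouse on the MCD+HF diet, with or without metformin, lay below the lowest NC mouse, while the metformin and MCD+HF groups overlapped. Dbp was 2.71-fold lower in MCD+HF than in NC mice (log2 change -1.44, SE 0.31, limma adjusted p = 0.00160). It was 3.28-fold lower in MCD+HF+Met than in NC mice (-1.72, SE 0.31, adjusted p = 4.6e-04). The probe set read for Dbp carries the suffix for probes that may match more than 1 transcript. The second Dbp probe set, 1418174_at, gave -1.33 (adjusted p = 0.00160) and -1.63 (adjusted p = 3.7e-04) in these comparisons. Dbp stayed lower and called in both comparisons with NC in all 22 alternatives run, including each array left out in turn.

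Nr1d1, the nuclear receptor that represses Arntl, followed the same order of groups at a smaller size. Its signals were 143.8, 92.7, 138.6 and 125.5 in NC mice and 86.3, 73.2, 53.3 and 55.9 in MCD+HF mice. With metformin they were 76.0, 89.3, 57.9 and 34.2. The lowest NC mouse, at 92.7, stood just above the highest mouse of the other groups, at 89.3 with metformin. Nr1d1 was 1.76-fold lower in MCD+HF than in NC mice (-0.81, SE 0.22, adjusted p = 0.00768) and 1.88-fold lower in MCD+HF+Met than in NC mice (-0.91, SE 0.22, adjusted p = 0.00422). The second of these did not pass with the methods' t-test after adjustment (0.0604) and passed in the other 20 alternatives.

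Cry1, a repressor of the ARNTL and CLOCK pair, had the largest rise of the 9 genes tested on the MCD+HF diet. It gave 50.4, 49.2, 45.0 and 29.6 in NC mice and 63.8, 95.3, 154.0 and 96.6 in MCD+HF mice. With metformin it gave 64.5, 54.3, 67.9 and 88.5. Both diet groups lay above every NC mouse, and the MCD+HF mice spanned the widest range. The rise was 2.04-fold on MCD+HF (log2 change 1.03, SE 0.21, adjusted p = 0.00108) and it passed in all 21 alternatives. Against normal chow, the rise with metformin in the diet was 1.47-fold (0.56, SE 0.21, adjusted p = 0.0487), at the edge of the threshold. That call was lost in 15 of the 21 alternatives, among them the removal of any NC mouse, of MCD+HF+Met replicate 1, 3 or 4, or of MCD+HF replicate 2 or 4, and the adjusted p ranged from 0.0243 to 0.144.

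Per2, a partner of the CRY proteins, was the other gene that rose. Its brightest probe set gave 147.3, 133.5, 142.3 and 123.5 in NC mice and 211.2, 222.8, 201.0 and 175.5 in MCD+HF mice. The MCD+HF+Met mice gave 169.6, 187.3, 166.1 and 116.1. All MCD+HF mice were above all NC mice, whereas MCD+HF+Met replicate 4 fell below the lowest NC mouse and the other 3 lay above the highest. The rise on MCD+HF was 1.45-fold (0.53, SE 0.13, adjusted p = 0.00457). The call rests on that probe set, since the other Per2 probe sets gave -0.04 (1457350_at, adjusted p = 0.914) and 0.35 (1417603_at, adjusted p = 0.314). Between MCD+HF+Met and NC mice Per2 gave 0.19 (95% interval -0.09 to 0.48, adjusted p = 0.271), and without MCD+HF+Met replicate 4 it gave 0.33 and was called (adjusted p = 0.0312).

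The remaining repressors were not called in any comparison. Per1, an early light- and hormone-responsive Per gene, had signals of 100.5, 116.5, 84.7 and 129.6 on normal chow. On the MCD+HF diet the mice gave 120.7, 153.9, 130.8 and 131.5, and with metformin the values were 110.5, 147.4, 121.7 and 98.4. The groups overlapped, and the change on MCD+HF was 0.30 (interval -0.0050 to 0.61, adjusted p = 0.103); without NC replicate 4 it was called (adjusted p = 0.0485). Per3, which carries the paired D-boxes shown above, gave 59.7, 74.2, 78.5 and 88.6 on normal chow. Mice on MCD+HF gave 142.3, 114.6, 83.2 and 90.7, and with metformin the values were 115.4, 95.1, 97.8 and 54.3. Its change on MCD+HF was 0.45 (interval 0.02 to 0.88, adjusted p = 0.0819), and it was called without MCD+HF+Met replicate 4 (adjusted p = 0.0321). The 3 other Per3 probe sets tested gave 0.18, -0.18 and 0.55 in this comparison, none of them called. Cry2, the paralogue of Cry1, gave 98.9, 104.0, 104.7 and 126.8 on normal chow. The values on MCD+HF were 96.8, 119.1, 115.3 and 104.7, and with metformin the values were 128.4, 150.2, 129.0 and 92.0. The change of Cry2 on MCD+HF was 0.01, and its interval of -0.29 to 0.30 lay below the 0.58 at the lower end of the interval for Cry1, a difference between genes that was not tested.

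The activators were dim or were read differently by their probe sets. Arntl signals were 42.8, 12.2, 5.0 and 18.5 on normal chow. Feeding MCD+HF gave 16.5, 20.3, 39.3 and 44.4, and with metformin the values were 38.7, 4.2, 26.8 and 69.4. The groups overlapped over most of their range (the CV was 83.6% in NC mice), and the change on MCD+HF of 0.53 had an interval of -0.44 to 1.49 (adjusted p = 0.370). The interval for Arntl held both no change and a rise of the size seen for Cry1. The second Arntl probe set, 1457740_at, gave -0.08 (adjusted p = 0.826). Npas2, which can take the place of CLOCK, had a mean signal of 4.37, under the minimum, and was not tested. Its signals ran from 0.6 to 5.8 on normal chow, from 1.4 to 8.8 on MCD+HF and from 3.7 to 8.5 with metformin, and the groups overlapped.

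Clock, the partner of ARNTL, was read by 4 probe sets that did not point one way. The brightest gave 152.9, 140.0, 139.7 and 95.1 on normal chow. Under MCD+HF they were 156.0, 190.5, 179.1 and 152.5, and with metformin the values were 196.2, 144.0, 175.0 and 208.3. On this probe set the change of Clock was 0.35 on MCD+HF (interval 0.04 to 0.67, adjusted p = 0.0663; called without NC replicate 1, adjusted p = 0.0446) and 0.43 in MCD+HF+Met against NC mice (adjusted p = 0.0295), which was called. The second call was lost without MCD+HF+Met replicate 1 (0.0763), MCD+HF+Met replicate 4 (0.0779) or NC replicate 4 (0.0964). It was also lost with the methods' t-test (adjusted p = 0.120) and with quantile normalization (limma adjusted p = 0.0680). Probe set 1439314_at rose by 0.57 (adjusted p = 0.0311) on MCD+HF, 1418660_at gave -0.11 (adjusted p = 0.525) and 1435775_at fell by 0.59 (adjusted p = 0.00272). The same probe sets gave 0.69 (adjusted p = 0.0122), -0.0009 (adjusted p = 0.997) and -0.46 (adjusted p = 0.0156) in MCD+HF+Met against NC mice. The direction for Clock as a gene is therefore not settled by these probe sets.

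**Figure D2:**
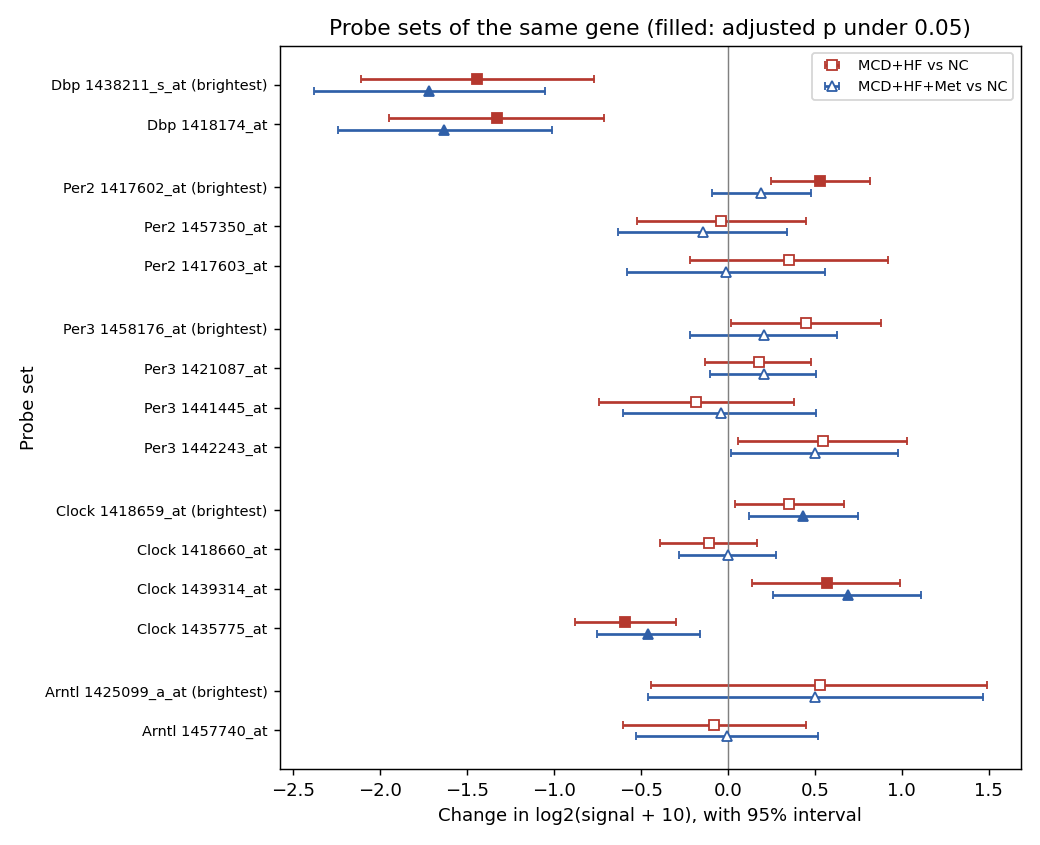
Change in log2(signal + 10) with its 95% interval for each tested probe set of the 5 clock genes with more than 1, for MCD+HF (squares) and MCD+HF+Met (triangles) against NC, filled where the adjusted p was under 0.05. Both Dbp probe sets lie together between -1.72 and -1.33, whereas the Clock probe sets run from -0.59 to 0.69.

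With metformin added to the MCD+HF diet, 0 of the 9 genes were called in limma, where 3.44% of all probe sets were called. The test of the methods after adjustment also called 0. It lost every metformin call of limma named below as well, even those of Noct (-1.79) and Lyz2 (-1.46). Its 0 therefore does not add to the limma result. At an unadjusted limma p under 0.05 stood 2 of the 9, Per2 and Cry1, beside 19.0% of all probe sets, and neither passed after adjustment. Per2 differed by -0.34 (SE 0.13, interval -0.63 to -0.05, limma adjusted p = 0.181), and Cry1 by -0.47 (SE 0.21, interval -0.93 to -0.02, adjusted p = 0.243). None of the 9 genes separated the 4 MCD+HF+Met mice from the 4 MCD+HF mice without overlap, against 11.8% of all probe sets. Dbp differed by -0.28 (interval -0.94 to 0.39, adjusted p = 0.686) and Nr1d1 by -0.10 (interval -0.57 to 0.38, adjusted p = 0.865). Without MCD+HF+Met replicate 4 these became 0.09 and 0.13. The intervals are wide enough to hold a change of 1.5-fold in Dbp and a smaller one in Nr1d1, so a missed threshold does not show that the groups were alike. Between MCD+HF+Met and NC mice, 4 of the 9 genes were called, Clock and Cry1 higher and Dbp and Nr1d1 lower, where 39.7% of all probe sets were called, 22.2% higher and 17.5% lower. Of these, Cry1, Dbp and Nr1d1, 3 in all, did not overlap with NC mice, against 34.8% of all probe sets. The comparisons share arrays, the NC mice in 2 of them and each diet group in 2, so their values are given side by side and are not independent.

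**Figure D3:**
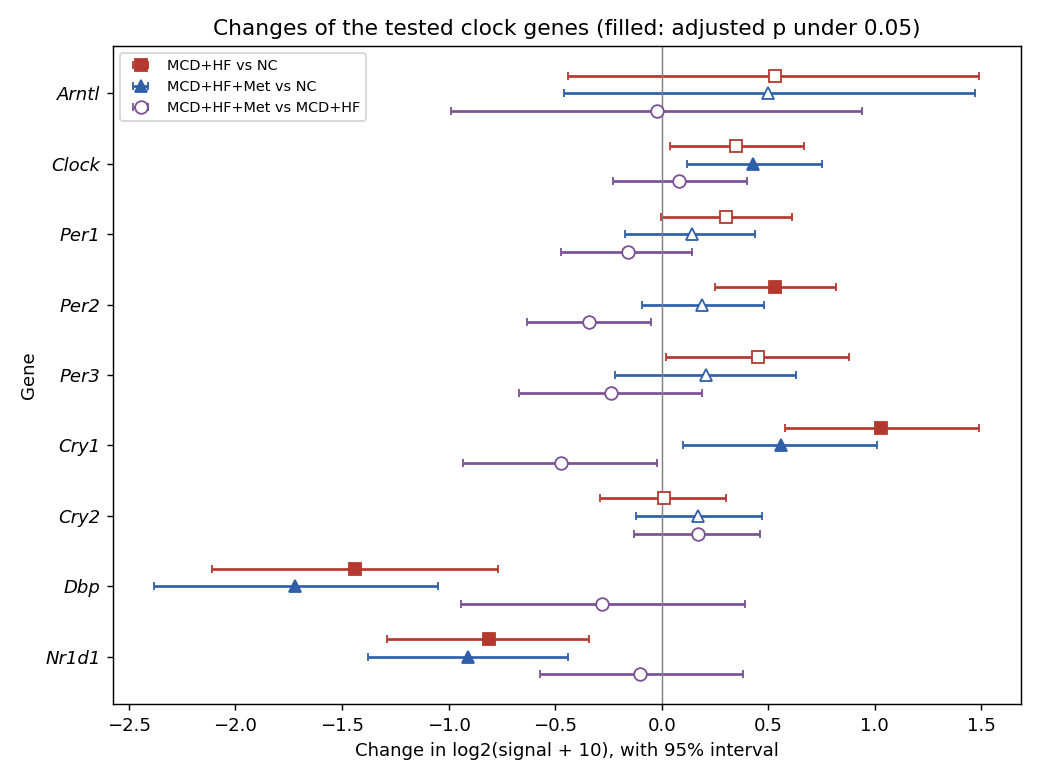
Change in log2(signal + 10) with its 95% interval for the 9 tested clock genes in the 3 comparisons, filled where the limma adjusted p was under 0.05. Dbp and Nr1d1 lie below 0 and Cry1 above 0 against NC in both diet groups, and no marker of the metformin comparison (circles) is filled.

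Mice of 1 group also differed from each other in these genes. Replicate 4 of MCD+HF+Met stood at the edge of its group in all 10 genes. It was the lowest of its group for 6 of them, with Dbp at 253.1, Nr1d1 at 34.2, Per2 at 116.1, Per3 at 54.3, Per1 at 98.4 and Cry2 at 92.0. It was the highest for the other 4, with Arntl at 69.4, Clock at 208.3, Cry1 at 88.5 and Npas2 at 8.5, the last a gene under the minimum signal. In the same group, replicate 2 was the highest for 5 genes, Dbp, Nr1d1, Per1, Per2 and Cry2. It was the lowest for 3, Arntl, Clock and Cry1, and in all of these it was the reverse of replicate 4. Replicate 1 of MCD+HF was the highest of its group for Dbp, Nr1d1 and Per3 and the lowest for Arntl and Cry1. There it was the reverse of MCD+HF+Met replicate 4, but it was also the lowest for Cry2 and Per1, as that mouse was. An edge position was common, as each gene puts 1 mouse highest and 1 lowest in every group. NC replicate 1 was the highest of its group for 6 of the 10 genes and the lowest for 2. How often each array was at the edge over all probe sets was not counted. The mice named here were picked out after their values were seen, and nothing in the labels sets them apart.

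Deviations of each mouse from its group mean describe this pattern over 12 mice, in which both genes of a pair come from the same array. Of 55 pairs among the 9 tested genes, Ciart and Nfil3, Dbp ran most closely with Nr1d1 (Pearson r = 0.89, Spearman rho = 0.90, and r = 0.80 without the 2 mice farthest from the median of Dbp). Dbp ran with Per3 at r = 0.87 (rho 0.83, and 0.71 without the 2 mice farthest in Per3) and against Cry1 at r = -0.81 (rho -0.84, and -0.79 without the 2 farthest in Cry1). Arntl ran against Dbp at r = -0.64 (rho -0.56), which dropped to -0.28 without the 2 mice farthest in Arntl. The relation of Arntl to Dbp thus rested on those mice, and that of Per2 to Dbp (r = 0.69, rho 0.53, and 0.32 without the 2 farthest in Per2) did so in part. Between groups the pairing differed for the brightest probe set of Per3. It ran with Dbp among mice of a group, yet the MCD+HF mean differed from the NC mean by -1.44 for Dbp and by 0.45 for Per3. That Per3 change was not called, and another Per3 probe set, 1441445_at, gave -0.18. Cry1 lay opposite to Dbp both among mice of a group and between the MCD+HF and NC means.

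**Figure D4:**
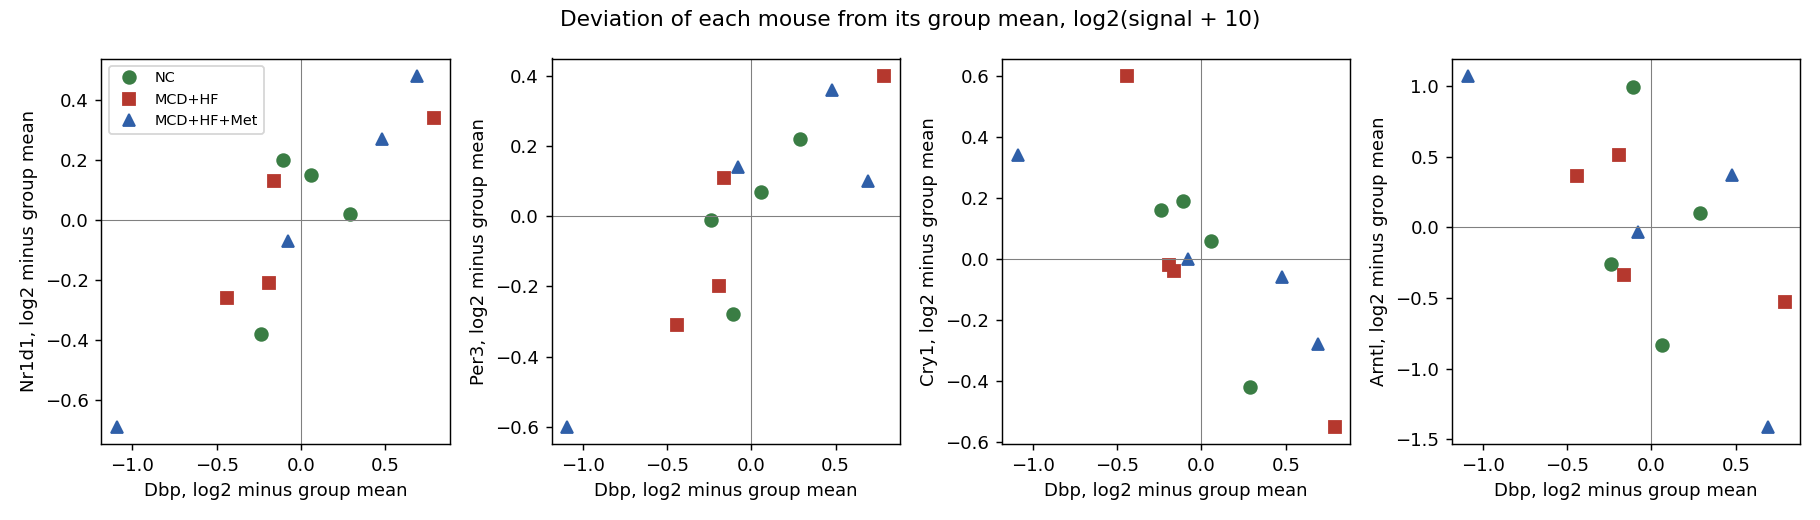
Deviation of each of the 12 mice from its group mean in log2(signal + 10), with Dbp on the x axis and Nr1d1, Per3, Cry1 and Arntl on the y axes. Nr1d1 and Per3 rise with Dbp (r = 0.89 and 0.87), Cry1 falls with it (r = -0.81), and Arntl falls with it mainly through the outermost mice (r = -0.64).

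Across all genes tested, the transcripts whose deviations were most like those of Dbp were Cebpa (r = 0.94), Trib3, Slc66a2 and Rnf152, and the most opposite were Bcap31 (r = -0.97), Mob1b, Aass and Masp2. For Nr1d1 they were Nfyb (r = 0.95), Pik3cg, Gprin3 and Sh3bp2, and on the opposite side Bcap31 (r = -0.94), Mat1a, Mettl5 and Il18bp. For Arntl they were Tamm41 (r = 0.92), Ube2s, 1700018L02Rik and Mpzl1, and on the opposite side Cys1 (r = -0.93), Ppp2r5e, Il4ra and Klf10. Each r is over 12 mice and is the extreme of 11099 genes.

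Of 18 further clock genes, 16 had a probe set naming them alone and 13 were tested, of which 4 were higher and 3 lower on MCD+HF than on NC, with a median change of 0.23 beside 0.06 over all probe sets. The 7 of 13 called stand beside 43.8% of all probe sets in this comparison, 25.4% higher and 18.4% lower. Tef, a PAR bZIP relative of Dbp, gave 668.8, 745.3, 636.9 and 746.0 on normal chow. MCD+HF livers gave 581.5, 428.3, 406.2 and 448.8, and with metformin the values were 503.5, 546.8, 489.8 and 479.7. It lay below NC in every mouse on the diet and was called lower on MCD+HF (change -0.59, adjusted p = 5.0e-04). Hlf, the third PAR bZIP factor, gave -0.34 (adjusted p = 0.208). Ciart, a repressor of the ARNTL and CLOCK pair, gave 84.9, 114.7, 80.3 and 172.4 on normal chow. Livers on MCD+HF read 77.9, 73.1, 41.4 and 38.6, and with metformin the values were 61.2, 59.9, 38.6 and 15.9. It did not overlap with NC in either group, with changes of -0.85 (adjusted p = 0.0352) and -1.24 (adjusted p = 0.00484). The first call was lost in 7 of 21 alternatives, among them the methods' t-test and the removal of NC replicate 2 or 4 or MCD+HF replicate 3 or 4. The second was lost with the methods' t-test (adjusted p = 0.0693). The promoter windows of Ciart and Tef, shown for comparison with those above, both held E-boxes.
Ciart, 3 E-boxes, chr3:95882259-95882352, minus strand: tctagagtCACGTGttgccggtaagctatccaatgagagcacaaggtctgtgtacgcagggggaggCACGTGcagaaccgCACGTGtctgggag
Tef, E-box, chr15:81802538-81802559, plus strand: tgtggctcCACGTGctgcagct

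Of the kinases and ligases that act on the PER and CRY proteins, Csnk1e, Btrc and Fbxw11 were called on MCD+HF, and Csnk1d and Fbxl21 were not. Csnk1e, a kinase that marks PER proteins for breakdown, gave 64.6, 45.2, 48.9 and 40.6 in NC and 124.8, 142.3, 120.9 and 123.7 in MCD+HF mice, a rise of 1.22 (adjusted p = 2.8e-06). With metformin it gave 108.0, 99.2, 111.6 and 85.9. These were all below MCD+HF and all above NC, a rise of 0.90 over NC (adjusted p = 7.1e-05) and a difference of -0.31 from MCD+HF (limma adjusted p = 0.215). Btrc, a ubiquitin ligase subunit for PER proteins, was lower on MCD+HF (change -0.63, adjusted p = 0.00382) and its paralogue Fbxw11 higher by 0.27 (adjusted p = 0.0494). Rora, an activator of Arntl, rose by 0.42 (adjusted p = 0.0306) and Timeless by 0.83 (adjusted p = 0.0466). The calls of Fbxw11 and Timeless on MCD+HF were lost in 14 and 12 alternatives, with NC replicate 2 or 4, MCD+HF replicate 1 or 2, or MCD+HF+Met replicate 1, 2 or 3 left out among them for both genes, and Fbxw11 also without NC replicate 3 or MCD+HF replicate 4. The call of Rora was lost in 6, among them without NC replicate 1 or 2 or MCD+HF replicate 3 or 4. The count of 7 further clock genes called on this diet was 3 without NC replicate 2 and 4 without NC replicate 4 or MCD+HF replicate 4.

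Nr1d2, the paralogue of Nr1d1, was not called in any comparison. Its signals were 1443.1, 1447.5, 1660.8 and 1617.2 in NC and 1750.1, 1646.2, 1875.2 and 1960.6 in MCD+HF mice (change 0.23, interval 0.0004 to 0.46, adjusted p = 0.0977), an interval that lies above the whole interval of Nr1d1, -1.29 to -0.34. The difference between these 2 genes was not tested. Nfil3, a repressor at D-boxes, ranged from 52.1 to 322.1 within the MCD+HF group and from 65.1 to 196.4 within MCD+HF+Met, and was not called (0.71 on MCD+HF, adjusted p = 0.188). Bhlhe40, an E-box repressor, Csnk1d, a relative of Csnk1e (-0.02 on MCD+HF), and Fbxl21, a ligase for CRY proteins (-0.25 on MCD+HF), were not called in any comparison. Rorb, Bhlhe41 and Arntl2 were under the minimum signal. No further clock gene was called between MCD+HF+Met and MCD+HF mice in limma, where 3.44% of all probe sets were called. At an unadjusted limma p under 0.05 stood 2 of the 13 tested, Csnk1e and Bhlhe40, beside 19.0% of all probe sets. Against NC mice, those on MCD+HF+Met had 2 higher (Csnk1e and Fbxw11) and 3 lower (Tef, Ciart and Btrc). These 5 of 13 called were close to the background of 39.7% of all probe sets, 22.2% higher and 17.5% lower.

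**Figure D5:**
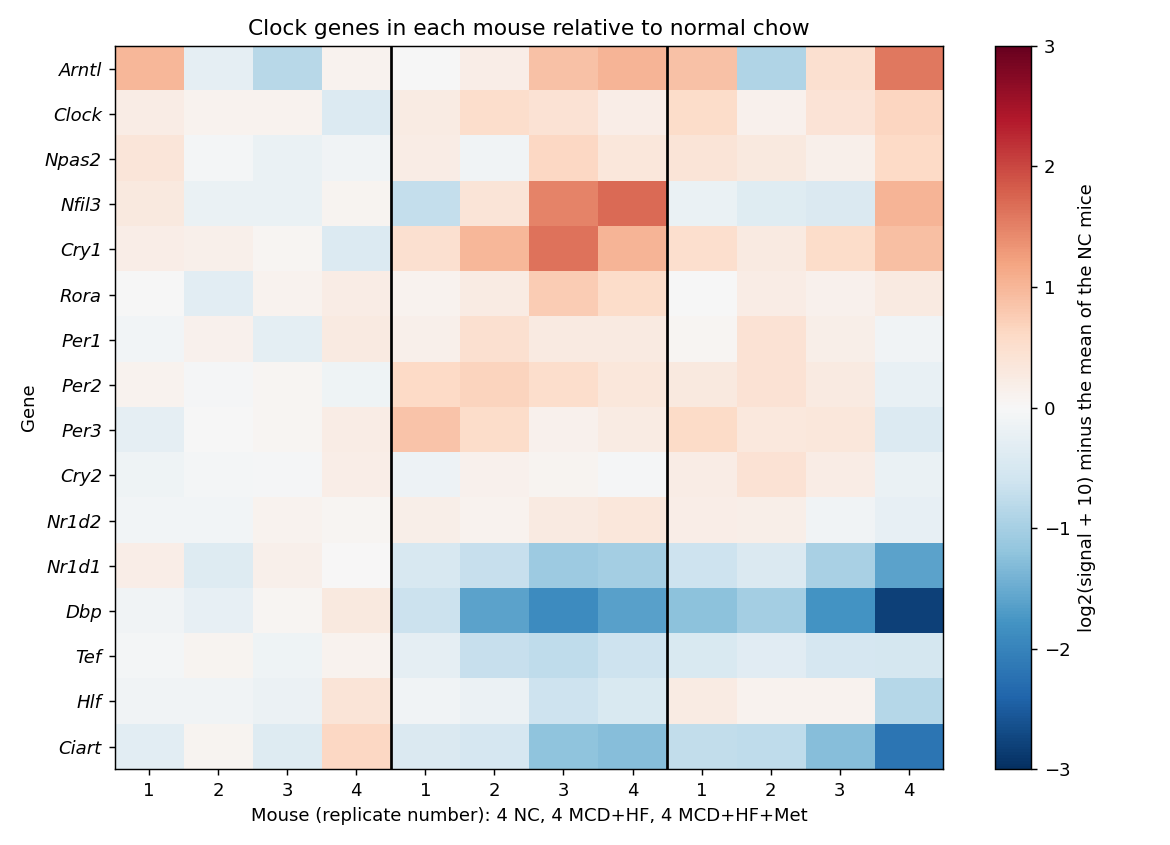
Log2(signal + 10) minus the mean of the 4 NC mice for 16 clock genes (rows) in each mouse (columns, replicates 1 to 4 on normal chow, then MCD+HF, then with metformin), red above and blue below NC. Dbp, Nr1d1, Tef and Ciart are blue in all 8 mice on the MCD+HF diet, Cry1 is red in all of them, and the column of MCD+HF+Met replicate 4 has the deepest blue for Dbp, Nr1d1 and Ciart.

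Of 9 rhythmic liver outputs tested, 2 were higher and 3 lower on MCD+HF, beside 25.4% higher and 18.4% lower over all probe sets, with a median change of -0.26. Elovl3, a fatty acid elongase, fell (change -3.58, adjusted p = 1.8e-08), and Noct, the gene of nocturnin, known for its night-time peak, rose by 1.35 (adjusted p = 0.00253). Noct was lower with metformin than without (change -1.79, adjusted p = 0.00642). Of 7 listed targets of DBP, TEF and HLF, 4 were tested (median -0.35), as Por, Cyp2a4 and Cyp2a5 had no probe set naming them alone. Only Cyp2c50 was called on MCD+HF (-2.32, limma adjusted p = 6.2e-08), where 43.8% of all probe sets were called. Cyp2b10 (1.39, limma adjusted p = 0.0117) and Cyp2c50 (0.69, limma adjusted p = 0.0455) were higher with metformin than without, where 3.44% of all probe sets were called. The metformin call of Cyp2c50 was lost in 17 of 21 alternatives, among them the removal of any 1 NC mouse, MCD+HF replicate 1, 2 or 4, or MCD+HF+Met replicate 1, 2 or 3.

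Genes that answer to cues able to reset the liver clock were counted beside the same background of 25.4% higher and 18.4% lower on MCD+HF. Of 11 fasting-induced genes tested, 5 were higher and 1 lower on MCD+HF (median 0.62), the higher led by Pdk4 (6.31), Igfbp1 (2.27) and Fgf21 (2.24). The lower was Pck1 (-0.66), a call lost under quantile normalization (-0.11, limma adjusted p = 0.253). Of 6 feeding-induced genes (median -0.31) 2 were lower, Thrsp (-2.03) and Srebf1 (-1.23). Of 8 glucocorticoid-induced genes (median 0.29) 2 were higher (Sgk1, 2.39, and Fkbp5, 0.78) and 2 lower (Tsc22d3, -0.52, and Klf9, -0.27, which turned to 0.04 under quantile normalization). Of 6 temperature-responsive genes (median 0.36) 3 were higher, Hspa1b (0.66), Cirbp (0.61) and Hspa8 (0.48). The call of Cirbp was lost in 12 of 21 alternatives, among them without NC replicate 2, 3 or 4, MCD+HF replicate 1, 2 or 4, or MCD+HF+Met replicate 2 or 3. With metformin against MCD+HF, where 3.44% of all probe sets were called, none of the fasting-induced and temperature-responsive genes was called. In the other lists, 1 feeding-induced gene was higher (Pklr, 0.70) and 1 glucocorticoid-induced gene lower (Dusp1, -1.06). These calls were lost in 10 and 9 of 21 alternatives, Pklr without MCD+HF replicate 1, 2 or 3 and Dusp1 without MCD+HF replicate 2, 3 or 4 among them, and both without MCD+HF+Met replicate 1, 2 or 3. The part of these genes in the clock gene results was not tested.

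Marker RNA of several cell types differed between the groups, and no cells were counted. Summed signals of 4 hepatocyte markers ran from 54222 to 63144 on normal chow, 27185 to 32264 on MCD+HF and 29717 to 35570 with metformin, and all 4 were lower on MCD+HF, although under quantile normalization Alb came to -0.0038, Ttr to 0.01 and Apoa1 to 0.02, and only Hnf4a stayed called. Of the other markers on MCD+HF, 4 of 6 macrophage markers (with 1 lower), 6 of 7 stellate and myofibroblast markers and all 4 cholangiocyte markers were higher, and 1 of 4 endothelial markers was higher and 1 lower, beside 25.4% higher and 18.4% lower over all probe sets. Of 4 genes listed for lymphocytes, Ptprc, a gene of leukocytes in general, was higher (1.23). Cd3e, Cd3g and Cd79b were under the minimum signal, so lymphocytes were not read apart from other leukocytes. With metformin against MCD+HF, where 3.44% of all probe sets were called, Ptprc (-1.16), Cd68 (-1.29), Lyz2 (-1.46), Csf1r (-0.70) and Col1a2 (-0.73) were lower. No other marker was called. The call of Col1a2 was lost in 9 of 21 alternatives, among them without replicate 1, 2 or 4 of either group. The part of these markers in the clock gene results was not tested, and in whole liver fewer cells of a type and less RNA per cell cannot be told apart. The mean signal over all probe sets, before the tails are trimmed, was 193 to 203 on normal chow and 163 to 177 in the other mice. The ratio of 3′ to 5′ beta-actin signal, a sign of RNA quality, was 1.73 ± 0.140 on normal chow, 1.54 ± 0.0694 on MCD+HF and 1.73 ± 0.114 with metformin (SD, n = 4).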

How the data were processed

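Liver RNA of 12 mice was hybridised to mouse oligonucleotide arrays. Signals came from GCOS, named in the submitters' processing notes, and the authors scaled each array to an average of 100. The deposited table holds linear intensities of 45101 probe sets, including 64 controls. Log2(signal + 10) was computed here from the deposited intensities, and the 22832 probe sets averaging at least 20 were fitted together over the 3 groups (limma 3.58.1, R 4.3.3, trended variance, 9 residual degrees of freedom). P-values were adjusted by Benjamini-Hochberg over all probe sets kept, with 0.05 as threshold, and measure the spread between the mice of a group. The fit was tested on simulated data.

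Genes were named from the platform's annotation, which can be old, for the 34945 probe sets with 1 symbol, updated through a RefSeq table of GRCm38.p6. The genes and 14 lists were chosen with earlier results of these data known. Named were all clock genes and up to 4 called genes with the largest change in each other list, and for Arntl, Dbp and Nr1d1 the 4 genes most and least like them. The number of arrays limits the precision. Alternatives were offsets of 0 and 32, no filter or a minimum of 50, quantile normalization, no variance trend, only the groups compared, the replicate number as a block, each array left out, other probe sets, and the methods' t-test. Those for genes outside the 10 were chosen after seeing the data. Figures were drawn with matplotlib 3.10.9.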

Additional observations from a re-analysis of the deposited data

Results flagged for a closer look

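Dbp in MCD+HF replicate 1 stood apart from the rest of its group in linear signal. Its signal was 1157.6, while the other 3 mice gave 488.3, 583.5 and 595.7, and the gap to the nearest of them was 0.840 of the group's range, above Dixon's 95% critical value for 4 values. It was the only such value among the 30 sets of 4 mice checked for the 10 clock genes, and chance alone picks out about 1 set in 20. The same mouse still lay below every NC mouse.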

How the results depend on the processing

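The calls of Dbp, Nr1d1 and Cry1 on MCD+HF against NC held under every alternative run. That of Per2 was lost with its other probe sets. It was also lost under the methods' t-test with a 1.5-fold difference, a size that its rise of 0.53 in log2 did not reach. The count of clock genes called in MCD+HF+Met against NC, 4, was 1 with the methods' t-test after Benjamini-Hochberg adjustment, 2 with that test unadjusted and a 1.5-fold difference, 2 with quantile normalization, and 2 to 4 with each array left out (2 without MCD+HF+Met replicate 1 or NC replicate 4). Replicate numbers name different mice in each group. Same-numbered mice deviated together with r from -0.13 to 0.25 over 12 pairs, 2 of them over 0.1. The highest was between replicate 4 of MCD+HF+Met and of MCD+HF. In 5 of the 12 the best match was the same number. Whether same-numbered mice shared an order or time of handling was not tested. With the replicate number as a block, 4 clock genes were called on MCD+HF, 0 with metformin against MCD+HF and 3 in MCD+HF+Met against NC. The 7 further clock genes called on MCD+HF were 3 with the methods' t-test and 4 when dim probe sets were kept in. The calls of Cyp2c50, Pklr and Dusp1 with metformin and of Cirbp on MCD+HF were lost in 17, 10, 9 and 12 of their alternatives.

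The sign turned for several values, the causes of which were not tested. On MCD+HF against NC it did so for Arntl with probe set 1457740_at (-0.08), Clock with 1418660_at (-0.11) and 1435775_at (-0.59), Per2 with 1457350_at (-0.04), Per3 with 1441445_at (-0.18) and 1421086_at (-0.36), Cry2 with quantile normalization (-0.12; -0.03 to 0.08 with each array left out), and Klf9 (0.04), Ttr (0.01) and Apoa1 (0.02) with quantile normalization. In MCD+HF+Met against NC it did so for Arntl with 1457740_at (-0.0040), Clock with 1418660_at (-0.0009) and 1435775_at (-0.46), Per2 with 1457350_at (-0.14) and 1417603_at (-0.01), Per3 with 1441445_at (-0.04) and 1421086_at (-0.68), and Cpt1a (0.0003) and Apoa1 (0.03) with quantile normalization. In MCD+HF+Met against MCD+HF it did so for Arntl with an offset of 32 (0.04), quantile normalization (0.03) and 1457740_at (0.07), and for Per3 with 1421087_at (0.03) and 1441445_at (0.13). With each array left out, the metformin difference ran from -0.38 to 0.45 for Arntl, from -0.51 to 0.09 for Dbp and from -0.26 to 0.13 for Nr1d1. Low signal limits Arntl and Npas2.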
